A study of Homo sapiens with 4 samples.

Results

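The regions described here are the SMAD1 peaks that were listed both in untreated H1 human embryonic stem cells (hESCs) and in the same line after BMP4, and that lie away from the main clusters of transfer RNA (tRNA) genes. Members were chosen by the peak calls themselves. A member is a BMP4 peak narrower than 2000 bp that overlaps an untreated peak by at least 1 bp and whose midpoint (hg19) falls outside 4 windows, namely chromosome 6 from 26.0 to 29.1 Mb and chromosome 1 from 16.5 to 17.5 Mb, from 142.5 to 150.0 Mb and from 161.3 to 161.7 Mb. This left 659 of the 7682 BMP4 peaks, or 659 of the 974 BMP4 peaks that overlapped any of the 5203 untreated peaks. Of the other shared peaks, 181 were narrow enough but inside a window, 26 were inside a window and too wide, and 108 were outside the windows and too wide.

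H1 is an established hESC line. The cells were grown on Matrigel in mTeSR1, a medium that maintains pluripotency. The untreated group received no BMP4 (0 min), and the treated group received BMP4 at 50 ng/ml in the same medium for 60 min. SMAD1-bound chromatin was immunoprecipitated with the antibody CST6944 and sequenced (ChIP-seq), and by the study's methods replicate libraries were merged before peaks were called. Each condition is therefore 1 list of peaks, there is no spread between replicates, and no difference between conditions was tested. The 2 input samples, chromatin without immunoprecipitation, were not analysed on their own.

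BMP4 binds a complex of type I and type II receptor kinases at the cell surface. The activated type I receptor phosphorylates SMAD1 and its relatives SMAD5 and SMAD8, which pair with SMAD4, enter the nucleus and bind DNA at target genes such as the ID genes. tRNA genes are short, very actively transcribed by RNA polymerase III and known to give signal in many ChIP experiments whatever the antibody. The study's authors judged a part of their SMAD1 peaks to be nonspecific enrichment at tRNA regions. The 4 windows hold the largest tRNA gene clusters, but smaller groups and single tRNA genes lie elsewhere. Whether members lie at tRNA genes or in repeated sequence was not tested. The peaks are in hg19, and no annotation of that build was used. Peaks are given by hg19 position, without sequence or gene annotation.

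Each peak carries a score from peak calling by the authors, taken here to be the −log10 p-value against input multiplied by 10. Both lists started at a score of 50.0, equal to a caller p-value of 1e-05. Scores are capped in practice near 3100. In the BMP4 list 225 peaks had exactly this value and 3 a higher one, and in the untreated list 30 had it and 3 a higher one. Peaks tied there cannot be ordered. Scores grow with sequencing depth, and across members they rose together with peak width in both lists. The depth of each library is unknown, and a ratio of scores is not a ratio of bound SMAD1. For some of the comparisons of scores between the lists, the place of a peak in its own list is given too. Place is the percentage of the list down to that peak (1% is near the top, and peaks with equal scores share their mean place). Intervals are 95% intervals, by order statistics for medians and exact binomial (Clopper-Pearson) for shares. They cover the number of peaks only and treat peaks as independent.

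Members made up 9.09% of the 7246 BMP4 peaks within the width and window limits, and 371 of 1249 such peaks with a score of at least 100, or 29.7%. Because overlap defined the members, these shares are the background of the choice and not a result. The 659 members had 641 partners, the partner being the untreated peak with the longest overlap. In 8 cases a member overlapped 2 untreated peaks, and none overlapped more. Members were 202 of the 500 highest BMP4 peaks, next to 174 shared peaks inside the windows, 32 other shared peaks and 92 that were not shared. Partners of members were 237 of the 500 highest untreated peaks.

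The members split into a group of very strong peaks and a long tail of weak ones. The median BMP4 score was 114 (interval 104 to 129, quartiles 68.9 and 549) and the median untreated score was 157 (interval 133 to 183, quartiles 75.1 and 438). These correspond to median places of 16.7% in the BMP4 list and 13.7% in the untreated list. For comparison, BMP4-only peaks within the same limits had a median score of 61.1 and untreated-only peaks 58.4. Both scores were under 100 in 153 members and both were at least 500 in 121. At the top of the scale 107 members had a BMP4 score of exactly 3100, the value shared by most of the strongest peaks, and 18 of these also had an untreated score of 3100 or more. Members supplied 107 of the 228 BMP4 peaks that scored 3100 or more.

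**Figure D1:**
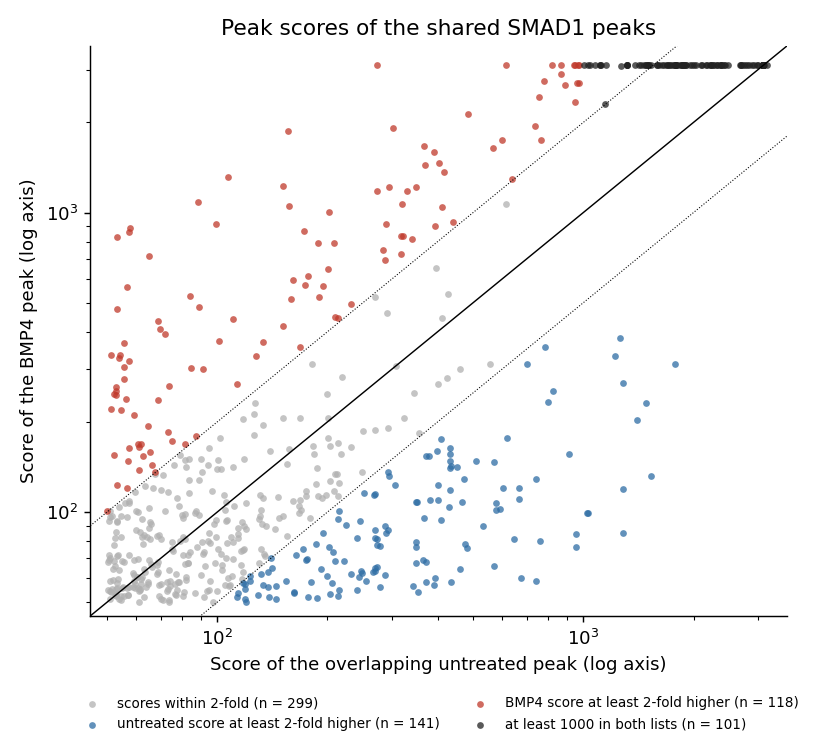
Score of each of the 659 members in the BMP4 list (y axis) against the score of its untreated partner (x axis), both on log axes. The solid line marks equal scores and the dotted lines a 2-fold ratio. Black, red, blue and gray points are the groups strong in both lists, higher after BMP4, higher in untreated cells and within 2-fold, as described in the text. A row of 107 members lies at a BMP4 score of 3100, and below it the points spread on both sides of the line.

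Over all members the lists were balanced. The BMP4 score was higher in 331 members (50.2%, 46.3 to 54.1), lower in 312 and equal in 16, and the median log2 ratio of BMP4 to untreated score was 0.00 (interval −0.02 to 0.10, quartiles −0.79 and 0.87). The direction changed with peak strength. Pairs were therefore grouped by the geometric mean of their 2 scores, which treats both scores alike. The choice of members does not, since the rule limits the width of BMP4 peaks but not of partners. The 67 members with a partner of 2000 bp or more had median scores of 94.3 after BMP4 and 294 untreated, and 59 were lower after BMP4. Of the 592 others, 324 were higher and 253 lower. The part of wide partners in the bands below was not tested. Between mean scores of 100 and 200 the BMP4 score was higher in 64 of 179 members (35.8%, 28.7 to 43.2), and between 200 and 400 in 32 of 81 (39.5%, 28.8 to 51.0). Between 400 and 800 it was higher in 29 of 41 (70.7%, 54.5 to 83.9), between 800 and 1600 in all 15, and above 1600 in 90 of 108 (83.3%, 74.9 to 89.8). In this top band 104 of 108 members sat at the BMP4 score of 3100, where a lower score than the partner's is nearly impossible, and of the 18 that were not higher 16 were ties at 3100, so its direction is not informative. The weakest pairs, with mean scores of 50 to 75, were near balance at 58 of 123 (47.2%, 38.1 to 56.4). The median log2 ratio went from −0.65 between 200 and 400 to 1.34 between 400 and 800. The depth of the libraries and the treatment cannot be told apart, since each condition is 1 list.

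**Figure D2:**
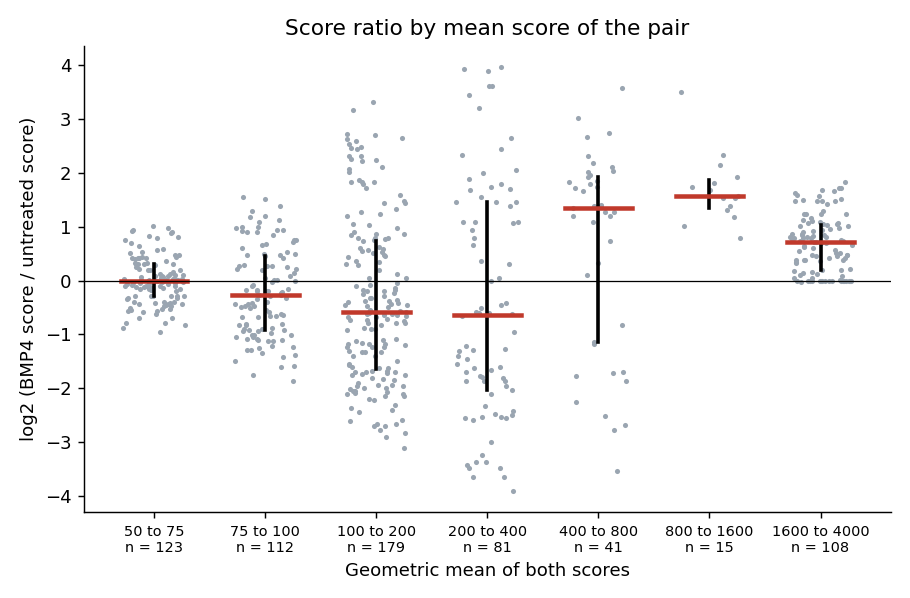
log2 of BMP4 over untreated score (y axis) for the members in 7 bands of the geometric mean of both scores (x axis, number of members below each band). Gray points are members, red lines medians and black bars quartiles. The medians lie at or below 0 up to a mean score of 400 and above 0 from there on.

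Scores of the pairs rose together across members, with a Spearman rho of 0.61 (n = 659), and of 0.35 over the 552 members with both scores below 3100. In those 552 the BMP4 score was the higher one in 242 (43.8%, 39.7 to 48.1). All 107 members left out had a BMP4 score of 3100, of which 89 were higher, 16 equal and 2 lower, so this share follows from the selection. These coefficients describe peaks of the same pair of libraries and have no p-value.

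Members were divided by their 2 scores, with limits set after the values were seen. The first group, strong in both lists, had a score of at least 1000 in each and held 101 members (15.3%) on 17 chromosomes. Of these, 99 scored 3100 in the BMP4 list. Untreated scores had a median of 1981 (quartiles 1587 and 2769). By place the strong members hardly differed, with medians of 1.51% in the BMP4 list and 1.85% in the untreated list. These were closely matching peaks, and in the BMP4 list they were wider at the median than the other groups described below. Their median width was 1220 bp in the BMP4 list and 1158 bp in the untreated list, and their midpoints were separated by 39.0 bp at the median (quartiles 13.5 and 78.5 bp) and by at most 307 bp. The BMP4 peak was the wider of the pair in 76 of 101. Strong members were spread over 68 bins of 1 Mb, of which 58 held a single one. The 6 bins with 3 or more strong members held 35 of them.

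In width and in the match of midpoints the strong members were close to the shared peaks inside the windows. The 181 window peaks under 2000 bp had a median width of 1177 bp, a median midpoint distance of 36.5 bp, a median BMP4 score of 3100 and a median untreated score of 989. In 166 of the 181 (91.7%, 86.7 to 95.3) the BMP4 score was higher than the untreated one. Among the strong members this was so in 83 of 101, with 16 ties at 3100 and 2 lower. The BMP4 score was 3100 or more in 99 of the 181 window peaks and in 99 of the 101 strong members. A lower score is nearly impossible there, so these directions say little. Across the window peaks the scores had a Spearman rho of 0.86. Overlap chose both sets, and the strong members were also chosen by score. Across members, width and score in the BMP4 list had a Spearman rho of 0.46. The part of score in the likeness of the 2 sets was not tested, and no test was made between them.

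No 10 members had the highest BMP4 score, since 107 were tied at 3100. Of these, 10 are given here, taken by untreated score and then by chromosome order. For all single peaks the untreated score comes before the BMP4 score. The peak at chr12:98896696-98898613 had an untreated score of 3174, the highest of all untreated peaks, and was 1918 bp wide. The peak at chr8:124168912-124170080 had an untreated score of 3109, the third of its list, with midpoints 10.5 bp apart. The other 8 are the first in chromosome order of 16 members that scored 3100 in both lists and cannot be ranked. They were chr1:167683416-167685356, chr1:204475118-204476763, chr1:249167472-249169206, chr2:27273117-27274730 and 4 peaks on chromosome 5, chr5:180523496-180525076, chr5:180528319-180529899, chr5:180600159-180601705 and chr5:180648389-180649999. Their widths lay between 1547 and 1941 bp. The 4 peaks on chromosome 5 belong to a bin of 8 members, all of which scored 3100 after BMP4.

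The second group held 118 members (17.9%) whose BMP4 score was at least 2 times the untreated score and which were not strong in both. The median BMP4 score was 585 (quartiles 270 and 1225) and the median untreated score 154 (quartiles 62.0 and 337), and 51 of them had an untreated score under 100. The median ratio was 3.35. Their median place was 4.77% of the list after BMP4 and 13.9% without it. Place is the rank of the same score that chose the group, so it is no separate measure. The BMP4 peak was the wider of the pair in 88 (74.6%) and covered nearly the whole partner, with a median of 99.3% of the partner inside the BMP4 peak. Midpoints lay a median of 61.8 bp apart. These members were mostly scattered, with 23 of 118 (19.5%) within 10 kb of another member.

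The 5 members with the largest ratio toward BMP4 were picked after the values were seen. The peak at chr16:9076858-9078505 scored 53.1 in untreated cells and 831 after BMP4, 15.6 times higher. The peak at chr7:148679941-148681342 scored 57.9 and 888, a ratio of 15.4. At chr3:27761936-27763053 the scores were 57.6 and 859 (14.9 times), at chr19:39902318-39903504 they were 107 and 1316 (12.3 times), and at chr7:148638133-148639126 they were 88.8 and 1085 (12.2 times). In the first and the third of these the untreated peak was close to the lowest score listed and much narrower than the BMP4 peak, at 905 and 605 bp against 1648 and 1118 bp. Both chromosome 7 peaks lie in 1 bin of 1 Mb with 4 members, where BMP4 scores ran from 128 to 1911, untreated scores from 57.9 to 303, and all 4 were higher after BMP4.

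The members that rose most by place in the list started from untreated scores near the lowest listed. The peak at chr10:124101539-124102789 went from 91.3% to 6.07% of the list (scores 51.4 and 335), chr1:159110954-159111968 from 92.9% to 8.24% (51.1 and 220), and chr11:78640445-78641061 from 99.9% to 20.0% (50.0 and 101). They were followed by chr5:34801920-34802997, from 86.3% to 7.42% (52.3 and 247), and by chr16:9076858-9078505, which is named above and started at 82.3%. Their BMP4 scores ran from 101 to 831.

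The third group had the opposite direction, with 141 members (21.4%) whose untreated score was at least 2 times the BMP4 score. The median untreated score was 294 (quartiles 205 and 475) and the median BMP4 score 78.5 (quartiles 60.8 and 115), at median places of 8.59% and 30.9%. In 92 of the 141 the BMP4 score was under 100. Another member lay within 10 kb for 48 of the 141 (34.0%). Width went with the direction. The untreated partner was 1400 bp wide at the median against 999 bp for the BMP4 peak, 20 of the 141 BMP4 peaks (14.2%) were wider than their partner, and 43 had a partner of 2000 bp or more. Without those 43, 98 members remained in this group, with median scores of 261 and 72.7 and median widths of 1136 bp and 910 bp.

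Most members with a wide partner scored lower after BMP4, but most members that scored lower had no wide partner. Of the 67 members with a partner of 2000 bp or more, 59 (88.1%, 77.8 to 94.7) had the lower score after BMP4, whereas this held for 253 of the 592 others (42.7%, 38.7 to 46.8). The rule limits the width of the BMP4 peak but not that of its partner, which gives room for a wide untreated peak and none for a wide BMP4 peak. Across all members the score ratio and the width ratio had a Spearman rho of 0.58, and of 0.52 over the 592 with a partner under 2000 bp. Width and score also rose together within each list, with a Spearman rho of 0.46 for BMP4 and 0.48 for untreated. The part of width in the score differences was not tested.

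The 5 members with the largest ratio toward the untreated list were also picked after the values were seen. At chr10:135487088-135488040 the scores were 1287 and 85.2, at chr15:44084827-44085444 they were 744 and 59.1, and at chr15:102295610-102296738 they were 952 and 76.2. The partners of the first and the third of these were 11366 and 6711 bp wide, whereas the members measured 953 and 1129 bp. At chr1:169100260-169102207 the scores were 1528 and 132, a ratio of 11.6 toward untreated with partner and member of similar width (2126 and 1948 bp). At chr1:43166054-43166934 they were 676 and 60.0, a ratio of 11.3, with widths of 983 and 881 bp. The last 2 peaks thus kept nearly the same width in both lists but not the score.

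The members that fell most by place ended near the lowest score listed. The peak at chr5:174541387-174542299 went from 17.5% to 99.8% (scores 120 and 50.0), chr11:27910265-27910844 from 14.5% to 95.5% (145 and 51.3), chr5:177482517-177483120 from 12.2% to 92.5% (177 and 52.0) and chr18:76676319-76676950 from 15.2% to 93.7% (138 and 51.9). The largest fall, by 83.2 percentage points from a place of 11.8%, was at chrY:28793061-28795029 (188 and 51.5).

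The remaining 299 members (45.4%) had scores within 2-fold of each other, on all 24 chromosomes. They were mostly weak, with a median of 82.4 in both lists, and were 943 bp wide at the median in the BMP4 list and 965 bp in the untreated list. Of them, 130 scored higher after BMP4 and 169 lower.

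Members overlap by choice, so their midpoints cannot lie further apart than the mean of the 2 widths. Within that limit the 2 calls of a member sat closely on each other. The median distance between midpoints was 69.0 bp (interval 62.5 to 78.5, quartiles 29.8 and 170 bp), and midpoints were within 50 bp in 262 members (39.8%), within 100 bp in 408 (61.9%) and within 500 bp in 591 (89.7%). With its sign, the shift had a median of −2.50 bp (interval −12.0 to 5.50), so neither direction along the chromosome prevailed. The overlap covered a median of 94.5% of the BMP4 peak and 92.3% of the partner. The BMP4 peak contained the partner in 169 members and lay inside it in 192, and the edges were staggered in 298. The median distance was 98.0 bp at mean scores of 50 to 75, 84.0 bp at 200 to 400, 49.5 bp at 400 to 800, 62.5 bp at 800 to 1600 (15 members) and 39.8 bp above 1600. Midpoints were within 50 bp in 60 of the 101 members strong in both (59.4%) and in 51 of the 118 with a higher BMP4 score (43.2%). This was so in 44 of the 141 with a higher untreated score (31.2%) and in 107 of the 299 within 2-fold (35.8%). The group with a higher untreated score held 43 of the 67 members with a partner of 2000 bp or more, where midpoints can lie further apart.

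**Figure D3:**
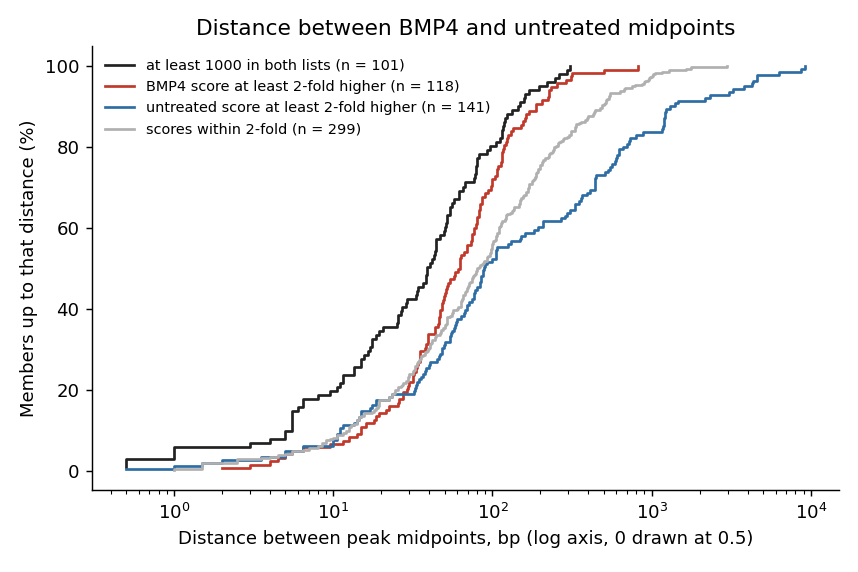
Cumulative share of members (y axis, %) by distance between the midpoints of the BMP4 peak and its untreated partner (x axis, bp, log axis), for the 4 groups defined by score. The curve of the members strong in both lists lies to the left and ends at 307 bp. That of the members with a higher untreated score reaches 9126 bp, at a member whose partner was 20120 bp wide.

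Members were wider than BMP4-only peaks within the same limits, and their partners were wider than untreated-only peaks. The median width of members was 1062 bp (interval 1029 to 1090), compared with 645 bp for BMP4-only peaks. Partners had a median of 1061 bp (1031 to 1097), against 650 bp for untreated-only peaks. Unlike the untreated-only peaks, partners had no width limit. For the 592 members with a partner under 2000 bp the median partner width was 1018 bp. In the BMP4 list the gap was seen mainly among weak peaks. Between BMP4 scores of 50 and 60 members had a median width of 788 bp and BMP4-only peaks 598 bp, between 100 and 200 these were 1017 and 947 bp, and between 200 and 500 they were 1116 and 1114 bp. From 500 to 1000 the 29 members, at 1118 bp, were narrower than the BMP4-only peaks, at 1240 bp. A wider peak also has more room to meet a partner, and the part of this in the comparison was not tested.

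The share of BMP4 peaks within the limits that were members varied between chromosomes. Chromosome 2 had the most members, 50, followed by chromosome 4 with 41 and by chromosomes 1 and 17 with 39 each, while chromosome 18 had 6, chromosome 20 had 11 and chromosome 22 had 12. Relative to all BMP4 peaks within the limits the order was different. Members were 3.70% of these on chromosome 18 (1.37 to 7.89) and 5.83% on chromosome 6 (3.81 to 8.48), but 15.0% on chromosome 16 (10.8 to 20.1), 16.2% on chromosome 17 (11.8 to 21.5), 16.7% on both chromosome 21 (9.84 to 25.6) and chromosome 22 (8.92 to 27.3), and 19.7% on chromosome 19 (13.7 to 27.0). Chromosome Y stood apart with 24 of 52 (46.2%, 32.2 to 60.5), of which 19 lay in runs. The bin of 1 Mb from 13 Mb alone held 19 members among 28 BMP4 peaks within the limits. The direction of the scores differed as well. On chromosome 16 the BMP4 score was the higher one in 31 of 37 members, on chromosome 14 in 25 of 33 and on chromosome 6 in 20 of 25. On chromosome Y it was the lower one in 19 of 24, on chromosome 4 in 27 of 41 and on chromosome 19 in 20 of 30. Chromosomes 16 and 14 held 17 and 16 members that were strong in both, and chromosomes 4 and Y held none. Of all strong members, 99 of 101 sat at the BMP4 score of 3100, where a lower score is nearly impossible. The direction on chromosomes 16 and 14 was therefore partly fixed by this limit.

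**Figure D4:**
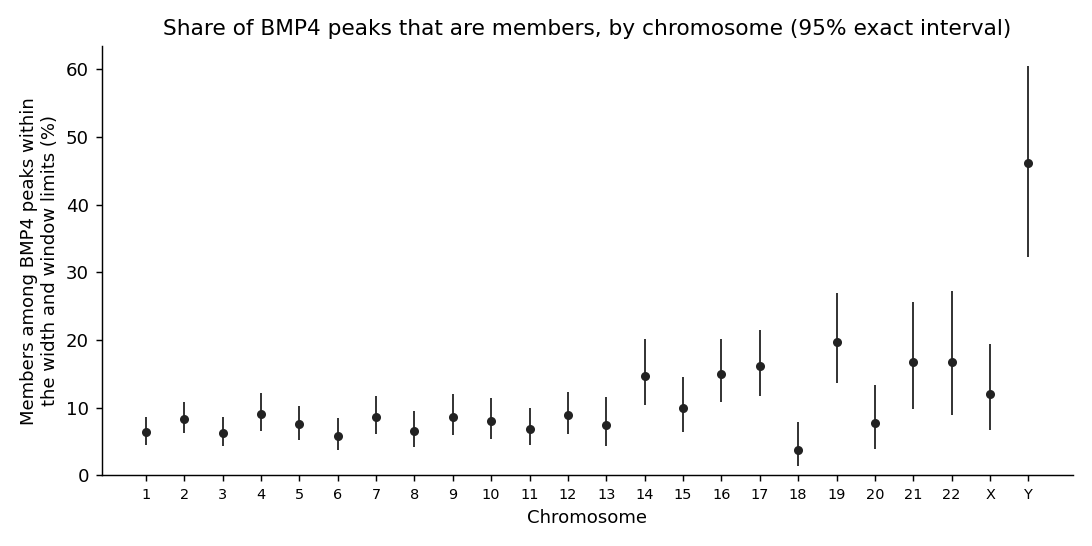
Members as a percentage of the BMP4 peaks under 2000 bp outside the windows (y axis) on each chromosome (x axis). Points are shares and bars 95% exact binomial intervals, which cover the number of peaks only. Chromosome Y lies highest at 46.2% and chromosome 18 lowest at 3.70%.

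Members lay closer to other peaks than peaks of a single condition did, and no test was made of this difference. The nearest other BMP4 peak was a median of 36.7 kb from a member and 111 kb from a BMP4-only peak within the limits, and it was within 10 kb for 242 members (36.7%, 33.0 to 40.5) and 714 of 6587 BMP4-only peaks (10.8%, 10.1 to 11.6). Among shared peaks inside the windows the median was 4.08 kb. Counting members alone, 170 (25.8%) lay within 10 kb of another member. They formed 64 runs, of which 41 had 2 members, 15 had 3 and the longest had 8, and 489 members were alone. In 40 of the 64 runs all members had the same direction, in 17 toward BMP4 and in 23 toward untreated. Members at a BMP4 score of 3100 could hardly be lower, which favors the direction toward BMP4. Members of a run are not independent. A further limit is that 30 members shared their partner with another member, and 29 of these were lower after BMP4.

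The longest run stood on chromosome 16, from 3221477 to 3242555, with 8 members in 21.1 kb. Their BMP4 scores ran from 2708 to 3100 and their untreated scores from 867 to 2163. All 8 were higher after BMP4, with a median log2 ratio of 0.99, and the peaks were of even width (1037 to 1584 bp). However, 6 of the 8 sat at the BMP4 score of 3100, where a lower score is nearly impossible. By place, the 8 ran from 1.51% to 3.24% of the list after BMP4 and from 1.52% to 4.96% without it. A run of 4 members lay just before it, from 3200141 to 3209541, in which every BMP4 score was 3100 and untreated scores ran from 1150 to 2111. Runs of the same kind were seen on chromosome 14 from 21077000 to 21082594, with 3 members at 3100 after BMP4 and 1697 to 3100 without it, and on chromosome 17 from 37017351 to 37025961, with 3 members at 1362 to 3100 after BMP4 and 416 to 943 without it.

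The 3 runs that followed in size, of 6 members each, were of another kind. On chromosome 4, from 9217336 to 9243340, BMP4 scores ran from 56.1 to 176 and untreated scores from 69.5 to 408, with all 6 lower after BMP4. The neighboring run from 9257314 to 9274386 had BMP4 scores of 56.8 to 114 and untreated scores of 192 to 342, again with all 6 lower. In both, most untreated calls were far wider than the BMP4 calls, so the 12 members had 7 partners. Taken over members, the median partner width was 3732 and 8832 bp, against 1623 and 1582 bp for the members. In the second run 1 partner of 8832 bp counted 4 times, once for each of its members, and the narrowest partner measured 1766 bp. On chromosome Y, from 13800651 to 13826724, both lists were weak, at 50.2 to 170 after BMP4 and 61.9 to 213 without it, and 4 of the 6 were lower after BMP4. A run of 5 on chromosome 19, from 36781377 to 36800374, shared a single untreated partner of 20120 bp with a score of 432. These 5 members scored 119 to 163 after BMP4. BMP4 peaks of 2000 bp or more are not members and are not counted in runs.

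The 4 runs with the largest fall in median score ratio were picked after the values were seen, and all of them rested on untreated peaks wider than the members. On chromosome 15 from 102294139 to 102300278, 3 members of 63.4 to 84.7 had partners of 270 to 952. On chromosome 10 from 135478087 to 135488040, 3 members of 85.2 to 270 shared a partner with a score of 1287. On chromosome 15 from 44084827 to 44086489, 2 members of 59.1 and 129 shared a partner with a score of 744 and a width of 1734 bp. On chromosome 4 from 190992046 to 191009683, 3 members scored 98.9 to 204 after BMP4 and their partners 592 to 1399, and the partners were 7064 to 11406 bp wide.

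In bins of 1 Mb the same contrast appeared. The 659 members fell into 442 bins, 347 of which held 1 member, and the 19 bins with 4 or more held 141 members. The bin on chromosome 16 that starts at 3 Mb held 13 members among 15 BMP4 peaks within the limits. All 13 were higher after BMP4, but 10 of them sat at 3100, where a lower score is nearly impossible. Members at 3100 in the other bins have the same limit. The bin on chromosome 14 at 21 Mb held 12, of which 11 were higher and 9 scored 3100, and the bin on chromosome 7 at 149 Mb held 10, of which 9 were higher. On chromosome 5 at 180 Mb all 8 scored 3100 after BMP4, against 968 to 3100 in untreated cells. The 7 members on chromosome 6 at 58 Mb were all higher, with a median of 595 after BMP4 and 161 without it. In the opposite direction, the 14 members on chromosome 4 at 9 Mb were all lower after BMP4, with a median of 71.1 against 274, as were the 6 on chromosome 19 at 36 Mb, the 5 on chromosome 19 at 8 Mb and the 5 on chromosome 2 at 87 Mb. On chromosome Y at 13 Mb, 15 of 19 were lower, with medians of 101 and 139. Whether tRNA genes or repeated sequences lie in these bins was not tested.

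**Figure D5:**
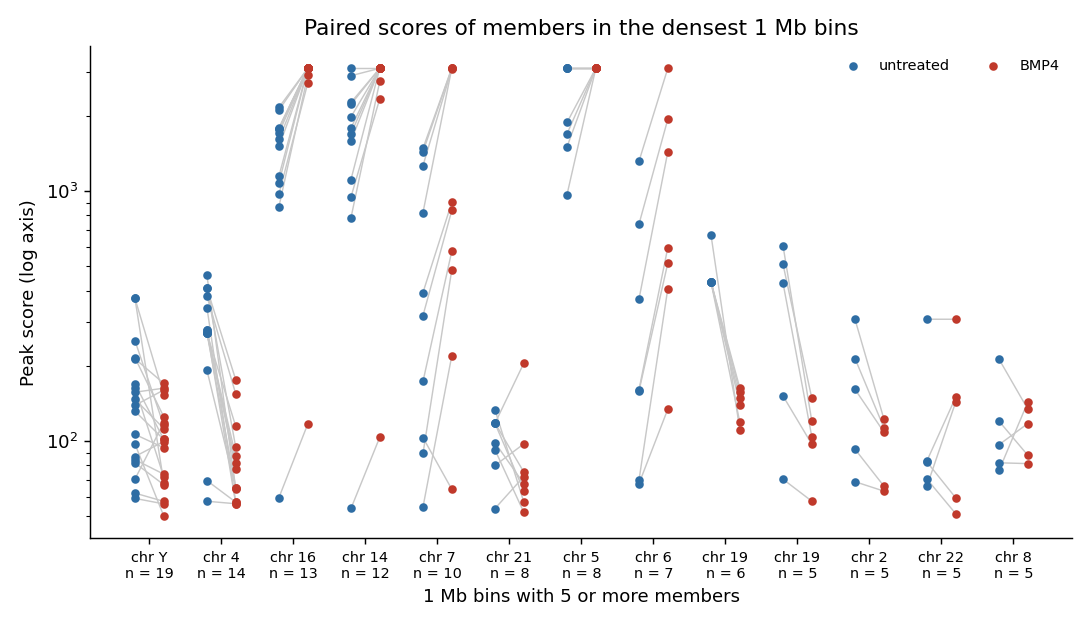
Scores of the members (y axis, log axis) in the 13 bins of 1 Mb that held 5 or more members, ordered by number (x axis, chromosome and number of members). Blue points are untreated partners, red points BMP4 peaks, and gray lines join a pair. Pairs in the bins on chromosomes 16, 14, 5 and 6 rise or stay level, and those on chromosome 4 fall.

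The limits of the rule passed through a few close cases. The widest members were chr12:125423444-125425440 at 1997 bp (3100 in both lists) and chr8:12351986-12353981 at 1996 bp (scores 63.6 and 122), and the narrowest shared peaks left out for width were chr5:69810979-69812979 at 2001 bp (123 and 95.9) and chr7:57550935-57552936 at 2002 bp (275 and 69.2). The smallest overlaps were 18 bp at chr2:8821420-8822004, 33 bp at chr2:114338390-114339383, 59 bp at chr2:43888710-43889282, 100 bp at chr8:7889990-7890811 and 107 bp at chr19:37788050-37789633. In these 5 the midpoints lay 515 to 3229 bp apart. The members nearest to a window edge were chr1:160895422-160896292, at 404 kb, and chr1:159110954-159111968, at 2189 kb. Inside the windows the shared peaks nearest to an edge lay 143 kb (chr6:28956222-28957393), 277 kb (chr1:17222018-17223617), 57.7 kb (chr1:142556861-142558519) and 69.5 kb (chr1:161368883-161370115) from it.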

How the data were processed

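The deposited files are 1 list of peaks per condition, with positions and a score for each peak. By the labels and the study's methods, the authors aligned single reads to hg19 with BWA 0.7.5a, merged replicate ChIP and replicate input samples, and called peaks against input with MACS 1.4.2 at default settings. The deposited score was taken to be the −log10 p-value multiplied by 10, from the program's format and the lowest listed score. The deposited lists are many times longer than the study's methods state for this peak calling, so whether that run and those settings made them is uncertain. Depth per library cannot be read from the lists.

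Overlaps, partners, runs (members at most 10 kb apart) and intervals were computed in Python 3.11.15 (pandas 2.3.3, numpy 2.4.6, scipy 1.17.1). Plots were drawn with matplotlib 3.10.9. The overlap step was checked on simulated lists. Starts are printed counting from 1. Single peaks were named by a rule: highest BMP4 score, largest change of place in each direction, smallest overlap, peaks next to each limit, and the longest runs, while others are said to be picked by value. The members, lists and limits were chosen with earlier results of these data known. In 15 of 24 chromosomes a listed peak ended past the hg38 chromosome, so the hg38 reference at hand was not used. The planned annotation, motif and sequence steps were not run.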

Additional observations from a re-analysis of the deposited data

How the results depend on the processing

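Across 11 alternatives, 8 values were recomputed where they applied. Of 71 recomputed values, 37 stayed within the 95% limits of the reported value (or within 1.5 times for the number of members) and 34 moved. With scores of at least 100 in both lists, 288 members were left, with median scores of 851 (BMP4) and 532 (untreated), a log2 ratio of 0.43, 61.5% higher after BMP4, a midpoint distance of 52.0 bp and a width of 1151 bp. BMP4 peaks under 1000 bp gave 266 members, scores of 73.4 and 98.9, a ratio of −0.27, 36.8% higher, 84.0 bp, 790 bp and 9.02% in runs. A minimum score raises the median scores by construction. With no window left out, the values were 163, 213, 0.35, 59.2%, 59.8 bp, 1108 bp and 35.7%. An overlap of 50% of both peaks gave 55.5 bp and 18.5% in runs. A gap of 1 kb counted as shared gave a BMP4 score of 102 and 82.0 bp. A partner also under 2000 bp gave a ratio of 0.10, 54.7% higher, 61.2 bp and 21.1% in runs, and BMP4 peaks under 5000 bp gave 1112 bp and 30.3%. With both scores below 3100 the ratio was −0.16 and 43.8% were higher. This filter removes members by their BMP4 score (89 higher, 2 lower and 16 equal), so the shift is fixed by it.

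Widening the windows by 1 Mb, taking the partner with the highest score and leaving out chromosomes X and Y moved no value computed for them. Widening left 658 of the 659 members, and only 8 members had 2 partners to choose from, so neither step could move a value much. The median BMP4 score does not depend on the partner at all. Unmoved values from these steps are among those counted above as within the limits and say little about stability. Without chromosomes X and Y only the share in runs was recomputed, at 24.0%. No paired analysis was possible because the replicates had been merged into a single list for untreated and a single list for BMP4. The alternatives for sequence and annotation were left out for want of hg19. Without read counts, a score near 50 says little about occupancy.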
